A study of Mus musculus with 4 samples.

Results

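Of the 21338 regions in the deposited Meis list of forelimb (FL) buds, 780 had 2 or more summits and overlapped a region of the hindlimb (HL) list. These 780 shared regions with several summits are described here. The list was called at a loose cutoff, with p up to 0.022 in FL. At p at most 0.0005, the paper's cutoff for peaks other than those common to FL and HL, 6773 FL regions were left. For the common peaks the paper set 0.0005 on their joint occurrence, with each list called at a p of 0.022. With an adjusted p-value (q) of at most 0.05, 3722 were left. A region is a stretch of the genome that the peak caller listed as enriched, and a summit is a local maximum of the ChIP signal within it. Rows of a list that gave an identical interval were taken as 1 region and their number as its number of summits, and FL and HL regions were taken as shared when they had at least 1 bp in common. The HL list had 16987 regions. The members were therefore chosen on FL summit number and on overlap with HL, so those 2 properties are given as descriptions, while HL summit number, HL spacing, the match of single summits and the places in the genome were not used to choose them.

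The ChIP-seq compared FL and HL buds of wild-type C57BL/6 mouse embryos at E10.5, at about 36 somites, with no allele or treatment in either group. About 500 FLs and about 500 HLs were pooled, and each limb gave 1 library of chromatin precipitated with 2 anti-Meis antibodies used together and 1 input library made from unprecipitated chromatin. The antibodies recognise Meis1 and Meis2 isoforms, so a summit cannot be assigned to either protein. A whole bud holds mesoderm and ectoderm, and the lists do not tell in which of them a region was bound. With 1 ChIP library per limb there is no replicate error, no test between the limbs was possible, and the 95% Wilson intervals given with shares cover counting error only. The lists hold no read counts, so the depth behind a single summit is unknown here.

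Meis1 and Meis2 are homeodomain proteins of the TALE class, which bind DNA with Pbx and Hox proteins and are known in the limb bud for proximal identity. They recognise a short hexamer, while Hox and Pbx proteins together recognise an octamer. Enhancers of developmental genes often hold several binding sites for such factors at short distances from each other. A peak caller that looks for several maxima can split such a region into separate summits, as far as the length of the sequenced fragments allows.

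The regions themselves were given in mm9, for which no genome sequence was used here. The sequences shown are RefSeq promoters of genes at whose mm9 start a member had a summit. In a window from 250 bp before to 50 bp after a gene start, 5 genes with a start placed in mm9 had an FL summit of a member, namely Hoxa2, 5730596B20Rik, Pbx3, Ppp3ca and Sfi1. RefSeq promoters of build GRCm38.p6 matched 2 of these genes by symbol. Both lie in the HoxA cluster, and the 250 bases before each RefSeq start are printed 5′ to 3′ on the strand of the gene, with matches to TGACAG (the Meis hexamer) or TGATNNAT (the Hox-Pbx octamer) on either strand in capitals. The windows are chr6:52164832-52165081 on the minus strand for Hoxa2 and chr6:52176905-52177154 on the plus strand for 5730596B20Rik.
Hoxa2: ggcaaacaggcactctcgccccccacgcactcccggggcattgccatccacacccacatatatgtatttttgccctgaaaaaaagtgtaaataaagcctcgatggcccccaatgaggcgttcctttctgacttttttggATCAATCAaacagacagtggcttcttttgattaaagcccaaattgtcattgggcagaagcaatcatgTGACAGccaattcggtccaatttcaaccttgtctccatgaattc
5730596B20Rik: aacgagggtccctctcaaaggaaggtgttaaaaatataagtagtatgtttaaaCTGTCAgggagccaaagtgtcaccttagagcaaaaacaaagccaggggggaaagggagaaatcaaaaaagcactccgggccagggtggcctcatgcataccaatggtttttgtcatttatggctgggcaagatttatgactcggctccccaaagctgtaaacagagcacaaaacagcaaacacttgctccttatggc

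In the Hoxa2 promoter the octamer lay 111 to 104 bases and the hexamer 44 to 39 bases before the RefSeq start. In the 5730596B20Rik promoter a hexamer on the opposite strand lay 197 to 192 bases before the RefSeq start. The summit distances below are from the mm9 start, which need not be the same base as the RefSeq start. They therefore cannot be set against the motif distances, and a printed window may not hold the summit. Over all 32851 RefSeq promoters, 15.9% held the hexamer and 7.68% the octamer in the same window, so the matches are descriptions of these letters only. Hoxa2 encodes a Hox protein of the anterior part of the cluster. Its member was 507 bp wide in mm9, with an FL summit of fold 2.14 (q = 1) 25 bp before the start and a higher one of fold 9.75 (q = 1.60e-21) 176 bp after it. The only HL summit, of fold 7.72, lay 167 bp after the start, beside the higher FL summit. The member at 5730596B20Rik was 643 bp wide and had FL summits 402 bp (fold 5.31) and 166 bp (fold 2.40) before the start. Its HL summits lay 403 bp (fold 3.96) and 186 bp (fold 3.75) before the start, so both limbs gave a pair of summits at nearly the same places. All folds are those of the deposited lists, as signal over the local input background, and q is the p-value of the summit adjusted by the peak caller.

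The mm9 starts at Pbx3 and Ppp3ca also had a summit in this window. At Pbx3, a Hox cofactor, the FL summits lay 5 bp after the start (fold 3.02) and 427 bp before it (fold 4.98), and the HL summits 346 bp (fold 3.61) and 446 bp (fold 2.57) before it. At Ppp3ca, a catalytic subunit of calcineurin, they lay 11 bp before (fold 2.51) and 200 bp after the start (fold 2.50), and the only HL summit (fold 3.34) lay 87 bp after it, between them. At none of Hoxa2, Pbx3 and Ppp3ca did an HL summit coincide with the FL summit nearest to the start, while the higher FL summits of Hoxa2 and Pbx3 had an HL summit close by.

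Several summits were uncommon among FL regions. Of all FL regions, 6.14% had 2 or more summits (1311 of 21338), and of all FL regions 22.6% overlapped an HL region (4813 of 21338). Both numbers are those of the rule on the loose lists and are given as its background. Of the 1311 FL regions with several summits, 780 were shared (59.5%), and of the 20027 with 1 summit, 4033 were shared (20.1%). The other 531 regions with several summits overlapped no HL region. Of the 780 members, 641 had 2 FL summits, 104 had 3, 21 had 4, 11 had 5, 2 had 6 and 1 had 25, which gave 1770 FL summits in all. Members just inside the rule shared 3, 10 and 12 bp with an HL region, and regions just outside it ended 2, 6 and 30 bp from the nearest one. The smallest spacings between the summits of a member were 31, 33 and 43 bp, while the widest shared regions with a single summit spanned 960, 827 and 815 bp.

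The members were wide and high. Their median width was 493 bp (range 131 to 7041 bp), against 225 bp for shared FL regions with 1 summit and 359 bp for FL regions with several summits and no HL region. The median width was 453 bp with 2 summits, 668 bp with 3 and 1085 bp with 4 or more, and the median width per summit was 227 bp. The highest FL fold of a member had a median of 4.56 (range 1.56 to 23.4), against 3.64 for shared regions with 1 summit and 3.33 for regions with several summits outside HL. A q of at most 0.05 in FL was reached by 544 members (69.7%), by 48.3% of the shared regions with 1 summit and by 27.7% of the regions with several summits and no HL region. The HL regions over members had a median highest fold of 3.66 and a median summed width of 276 bp, and 354 members (45.4%) had an HL q of at most 0.05.

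The question that the HL list allows is whether a region with several summits in FL was also split in HL. Of the 780 members, 300 had 2 or more HL summits (38.5%, 35.1 to 41.9%), counted over all HL regions that overlapped the member. Among all shared FL regions 15.7% had 2 or more HL summits, and among the 4033 with 1 FL summit 458 had (11.4%, 10.4 to 12.4%). The share was larger with more FL summits, at 32.8% of the members with 2, 60.6% with 3 (63 of 104) and 77.1% with 4 or more (27 of 35). The HL summits came partly from separate HL regions, since 106 members (13.6%) overlapped 2 or more HL regions, against 1.36% of the shared regions with 1 summit. A single HL region with 2 or more summits of its own was found over 223 members (28.6%), against 405 of the 4033 shared regions with 1 summit. Most members had more summits in FL than in HL (541, 69.4%), 194 had the same number (24.9%) and 45 had more in HL (5.77%). Among the 300 members split in both limbs, 61 had more FL summits, 194 the same number and 45 more HL summits.

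**Figure D1:**
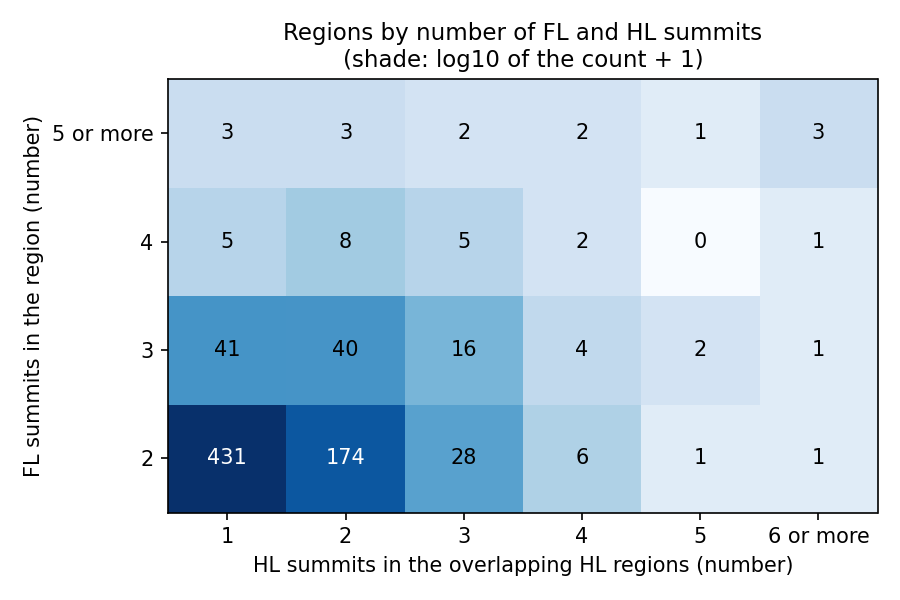
Number of members (figure in each cell, shade on a log10 scale) by the number of FL summits (vertical axis) and of HL summits in the overlapping HL regions (horizontal axis). The largest cell holds 431 members with 2 FL summits and 1 HL summit, followed by 174 with 2 in each limb.

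Width and fold moved with the HL summit number. Below 300 bp of FL width, 9.33% of the members and 8.99% of the shared regions with 1 FL summit had 2 or more HL summits, so regions of this width did not differ beyond their counting intervals. From 300 to 400 bp the shares were 21.5% and 14.9%, from 400 to 500 bp 31.9% and 16.4%, and from 500 to 700 bp 46.9% and 30.1%. At 700 bp or more both were 66.7%, over 141 members and only 12 regions with 1 summit. Split by FL fold, the shares were 17.6% and 9.12% below a fold of 3, 36.5% and 11.4% from 3 to 5, 44.5% and 13.1% from 5 to 8, and 52.1% and 16.6% at 8 or more. The members thus had the larger share in each class of fold and in the 3 width classes between 300 and 700 bp, with overlapping intervals from 300 to 400 bp. How far width alone sets the HL summit number was not tested.

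**Figure D2:**
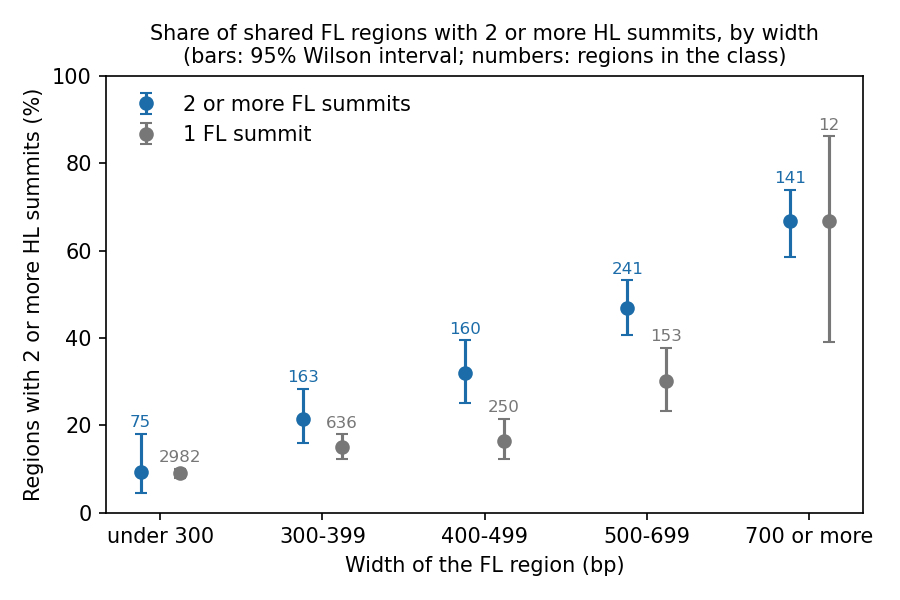
Share of shared FL regions with 2 or more HL summits (vertical axis, percent) by width of the FL region (horizontal axis, bp), for members (blue) and shared regions with 1 FL summit (grey). Points are shares, bars 95% Wilson intervals and small numbers the regions in each class. Both series rise with width, from 9.33% and 8.99% below 300 bp to 66.7% at 700 bp or more.

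Neighbouring summits lay at similar distances in both limbs. The 990 FL spacings within members had a median of 205.5 bp (range 31 to 619 bp) and the 294 HL spacings, within 224 HL regions over members, a median of 181 bp (range 16 to 512 bp). Gaps between separate HL regions over the same member were not counted. Of the FL spacings 52.1% were between 150 and 250 bp, and of the HL spacings 52.4%. Spacings under 100 bp made up 3.03% in FL (30 of 990) and 4.42% in HL (13 of 294), and those over 400 bp 4.34% and 3.06%. Members with 2 FL summits had a median spacing of 198 bp and those with 3 or more of 219 bp. FL regions with several summits and no HL region had a median of 166 bp over 578 spacings. The fragment length or shift that the peak caller used is not given in the sources used here, so the smallest spacing that these lists could resolve is not known. From the outermost summits of a member to the end of the region the median distance was 110 bp.

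**Figure D3:**
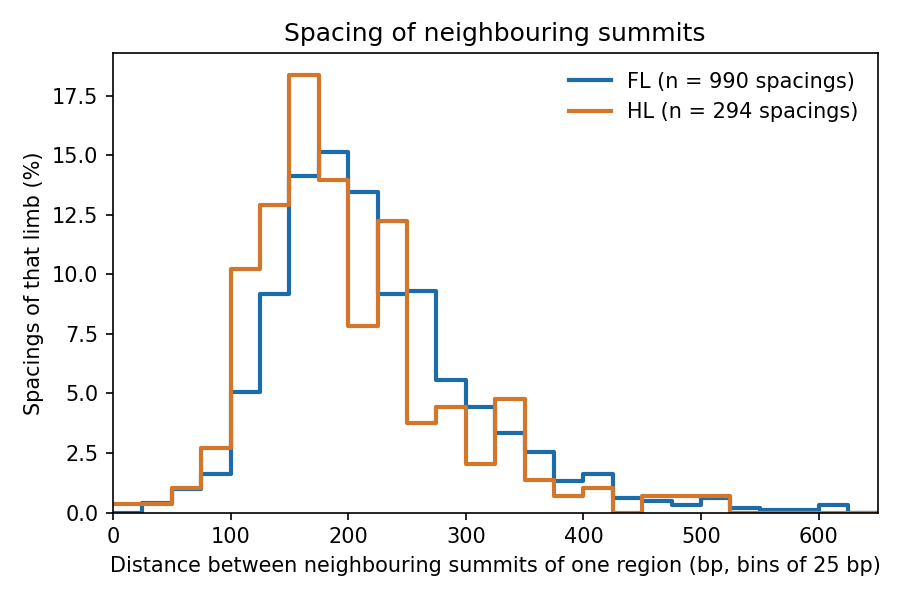
Distance between neighbouring summits of a region (horizontal axis, bp, bins of 25 bp) as a percentage of all spacings of that limb (vertical axis), for FL (blue, n = 990) and HL (orange, n = 294). Both distributions peak below 200 bp, and the FL curve lies to the right of the HL curve, with medians of 205.5 and 181 bp.

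A direct comparison was possible for the 122 members with 2 FL summits under a single HL region that also had 2 summits. Their median spacing was 217 bp in FL and 192 bp in HL, and the HL spacing was the shorter one in 77 members (63.1%). The spacings lay within 50 bp of each other in 63 members (51.6%), with a median difference of 49.5 bp and a largest one of 436 bp. In 39 members the HL spacing was more than 50 bp shorter and in 20 more than 50 bp longer. Both summits lay within 50 bp of their counterparts in 47 members (38.5%). Across the 122 members, which share the 2 libraries, Pearson's r of FL and HL spacing was 0.19 and Spearman's rho 0.21, a weak relation that is given as a description. The higher of the 2 summits was on the same side in both limbs in 80 members (65.6%). Sides were taken by the order of the summits and not by their positions. A member with equal HL folds counted as same-sided if its right FL summit was the higher. That share was 70.1% (68 of 97) where the FL folds were more than 1.2 times apart and 48.0% (12 of 25) where they were closer.

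**Figure D4:**
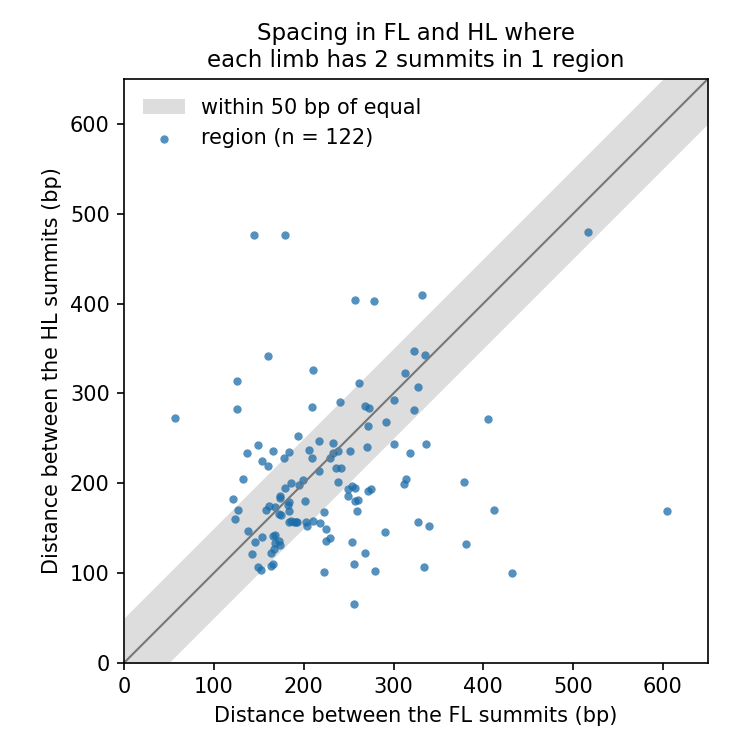
Distance between the 2 HL summits (vertical axis, bp) against the distance between the 2 FL summits (horizontal axis, bp) for the 122 members with 1 pair of summits in each limb. The line marks equal spacing and the grey band 50 bp to either side. Inside the band lie 63 members, and 39 lie below it and 20 above it.

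Single FL summits were then matched to the nearest HL summit. Of the 1770 FL summits of members, 803 had an HL summit within 50 bp (45.4%, 43.1 to 47.7%), whereas of all FL summits in shared regions 64.2% had. The highest FL summit of each member was matched in 489 of 780 cases (62.7%) and the lower summits in 314 of 990 (31.7%), with median distances of 35 and 116 bp. In shared regions with a single FL summit, 72.5% were matched (2924 of 4033). Members with 1 HL summit had 54.8% of their highest and 17.4% of their lower FL summits matched, and those with 2 or more HL summits had 75.3% and 48.9%. All FL summits were matched in 94 members (12.1%) and none in 145 (18.6%). A match is more easily met where HL has more summits, so members with 1 and with several HL summits are given separately.

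The position of a lone HL summit followed the difference in FL fold. In the members with 2 FL summits and 1 HL summit, leaving out 5 with equal FL folds, the HL summit lay nearer to the higher FL summit in 310 of 426 (72.8%, 68.4 to 76.8%). The share was 50.0% (36 of 72) where the FL folds were less than 1.1 times apart, 62.8% (108 of 172) from 1.1 to 1.5 times and 91.2% (166 of 182) at 1.5 times or more. The HL summit lay within 50 bp of the higher FL summit in 235 members (55.2%), of the lower one in 81 of 426 and of neither in 112 (26.3%). It lay between the FL summits in 246 (57.7%).

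Summits of the same region were of unequal height. The lowest FL fold of a member was a median of 0.670 times its highest, at least 90% of it in 120 members (15.4%) and below 50% in 210 (26.9%). In HL the median ratio was 0.705 over the 300 members with 2 or more HL summits. In those 300 members the highest FL and the highest HL summit lay within 50 bp in 154 (51.3%, 45.7 to 56.9%), with a median distance of 49.5 bp. In the 104 members with 3 FL summits, the middle one was the highest in 46 (44.2%). The log2 ratio of highest FL to highest HL fold had a median of 0.31 in members and 0.14 in shared regions with 1 summit, and FL was above HL in 548 members (70.3%) against 60.6%. The members had been chosen on FL summits and not on HL summits, so a higher FL than HL value is partly what the choice selects.

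The members lay on all 20 chromosomes with FL regions (1 to 19 and X), where they made up 12.9 to 19.4% of the shared FL regions. Distances to genes rest on mm9 starts worked out from the peak-to-gene assignments that were published with the study, of which the first 1994 rows were read. An assigned gene with a placed start was at hand for 417 members and 1395 shared regions with 1 summit, and whether these are a fair sample is not known. The nearest assigned start was within 1 kb for 13 members (3.12%), within 5 kb for 32 (7.67%, 5.49 to 10.6%) and between 50 and 500 kb for 255 (61.2%), and over 500 kb away for 28 (6.71%). For shared regions with 1 summit, 8.96% were within 5 kb and 57.8% between 50 and 500 kb. The median distances were 95.7 and 83.1 kb, so both kinds of region lay mostly far from the assigned starts. Another member was found within 50 kb for 184 members (23.6%) and within 5 kb for 58 (7.44%).

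Members also occurred in runs, and 55 of them formed 8 runs of 4 or more with gaps of at most 100 kb. The longest run, chr14:22685388-22988134, spanned 303 kb around Zfp503, which encodes a zinc finger repressor of developing tissues, and had 11 members among 17 shared regions. These members had 29 FL and 30 HL summits, 10 of them had 2 or more HL summits, and their highest FL folds ranged from 3.28 to 22.4. The highest of them, 85.1 kb downstream of the Zfp503 start (chr14:22722789-22724324), was 1536 bp wide. Its FL summits lay 582 bp apart, with folds of 8.15 and 22.4, and its 5 HL summits had folds of 15.4, 6.85, 3.59, 2.89 and 2.65. The highest HL summit was 53 bp from the lower FL summit and the next one 18 bp from the higher FL summit, so the order of heights was reversed between the limbs. A member 1.85 kb upstream of Zfp503 had FL folds of 2.74 and 15.3, 482 bp apart, and a single HL summit of fold 16.9, which lay 6 bp from the higher FL summit. Another member, 4.42 kb downstream of the start, had 3 FL summits of folds 3.32 to 3.93 and 4 HL summits of folds 2.45 to 3.33, and was low in both limbs.

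The next run was the HoxA cluster (chr6:52110812-52176625), with 9 members in 65.8 kb among 16 shared regions, 23 FL and 22 HL summits, and 7 members split in HL. Hox genes encode the homeodomain proteins that set regional identity along the body and limb axes. Besides the member at the Hoxa2 start, the member 0.842 to 1.46 kb downstream of that start had 4 FL summits (folds 4.82, 2.77, 3.65 and 2.42) and 3 HL summits (folds 2.61, 2.47 and 2.96). The Hoxa5 member (chr6:52153011-52154243) had 4 FL summits at 219, 205 and 193 bp from each other, with folds of 5.83, 2.83, 3.84 and 2.99. It had 6 HL summits in 2 regions, with folds of 1.93 to 3.66, and 3 of them lay 36, 16 and 24 bp from an FL summit. The Hoxa9 member had summits 213 bp apart in FL (folds 3.36 and 3.89) and 184 bp apart in HL (folds 3.03 and 3.48), and the higher summits were at the same base.

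The HoxB run (chr11:96165164-96344324) had 8 members among 27 shared regions, with 19 FL and 13 HL summits, 5 members split in HL and highest FL folds of 2.27 to 6.06. Its highest members were the last 3, from downstream of Hoxb1 to the surroundings of Skap1, with highest FL folds of 5.06, 5.48 and 6.06 and highest HL folds of 4.95, 3.97 and 2.74. The first of these, 41.7 to 42.2 kb downstream of Hoxb1, had FL folds of 3.38, 5.06 and 2.92 and HL folds of 4.95 and 2.37. The Hoxb2 member had 3 FL summits of folds 2.41 to 2.72 and 1 HL summit of fold 2.104, which lay 174 bp before the first FL summit. Upstream of Zfp703, a zinc finger gene related to Zfp503, 7 members lay in chr8:27783597-27963065, with 18 FL and 11 HL summits and 3 members split in HL. The highest of these reached a fold of 16.9 in FL and 5.83 in HL, with 2 FL summits and 1 HL summit. Another run of 4 members lay between Fto and Irx3 (chr8:94056889-94203817), with 8 FL summits and 4 HL summits, so that none of the 4 was split in HL. Irx3 is an Iroquois gene known for proximal and anterior limb elements. The 3 members assigned to it had FL folds of 3.95 and 2.55, 2.58 and 2.49, and 4.79 and 5.99, and HL folds of 3.82, 2.60 and 4.25. The remaining runs held 4 members each, between 1700112E06Rik and Kcnma1 on chromosome 14 and between Mecom and Actrt3 on chromosome 3.

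One run differed from the others in height. At Sfi1 (chr11:3027110-3093597), a centrosomal protein gene, 8 members among 19 shared regions had 19 FL and 16 HL summits, with highest FL folds of only 1.56 to 2.13 and highest HL folds of 1.46 to 1.93. None of the 8 reached a q of 0.05 in FL.

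Members assigned to genes of the limb lists were considered next, as counts of genes that had a start placed in mm9 and at least 1 assigned member. Of all 2023 genes with a placed start, 607 had an assigned member (30%). Starts were placed only for genes in the rows read, and only the 417 members with an assigned start could enter the counts, so a gene without one may still have a member nearby. For instance, members with no assigned gene lay 5555 bp from the Tbx2 start and 105783 bp from the Lhx9 start, examples picked after their values were seen. The lists are small and were not tested against this background. An assigned gene was not always the one with the nearest placed start. Of the Meis genes and their partners, Meis1, Meis2 and Pknox2 had members. The Meis2 member (chr2:115890874-115891446) was 573 bp wide, with FL summits 0.253 kb (fold 8.50, q = 3.85e-14) and 0.579 kb (fold 3.63, q = 0.0206) upstream of the start. HL summits lay 0.230 kb (fold 6.36) and 0.548 kb (fold 2.30) upstream, in separate HL regions. The spacing was 326 bp in FL and 318 bp in HL, and the summit nearer to the start was the higher one in both limbs. A second member assigned to Meis2, 467 kb downstream of its start, had FL folds of 3.47 and 4.75 and HL folds of 4.30, 3.85 and 3.85. The Meis1 member lay 592 kb from the Meis1 start, towards Spred2, with folds of 3.24 and 5.78 in FL and 4.22 and 5.80 in HL and spacings of 271 and 263 bp. The Pknox2 members had FL folds from 2.53 to 3.76 and a single HL summit each. The member at the Meis2 start and the Meis1 member thus had summits at similar places in both libraries.

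Of the antero-posterior patterning genes, 5 of 7 had 1 member each (Cdon, Hand2, Isl1, Pax9 and Tbx3). Hand2 is a transcription factor gene of the posterior limb mesenchyme. Its member (chr8:59440977-59441753), 358.3 to 358.6 kb upstream of the start, was 777 bp wide and was among the highest of all members. The FL summits had folds of 14.9 (q = 2.19e-31) and 20.4 (q = 2.22e-51), 323 bp apart, and the HL summits folds of 11.9 (q = 1.12e-24) and 12.5 (q = 6.22e-25), 347 bp apart. The FL and HL summits differed by 15 and 9 bp, so that both summits were found in both limbs at nearly the same bases. Cdon encodes a Hedgehog co-receptor, and its member 0.569 kb downstream of the start had FL folds of 7.11 and 3.13 and HL folds of 2.42 and 3.73. The higher Cdon summits were 4 bp apart. The Isl1 member lay 396 kb from the Isl1 start and nearer to that of Parp8 (318 kb). It had folds of 4.01 and 2.84 in FL and 3.68 and 4.05 in HL, so that the higher summit was not on the same side. At Tbx3, a T-box gene of the limb margins, summits of FL fold 3.84 and 6.62 lay 179 bp apart, and the HL summit of fold 3.42 was 13 bp from the higher one. The Pax9 member had FL folds of 3.47 and 2.37 and HL folds of 4.05 and 2.74, so it was higher in HL than in FL.

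Of the proximo-distal and girdle genes, 6 of 11 had a member (Alx1, Alx4, Emx2, Irx3, Rarb and Tbx15), with 10 members in all. Alx4 encodes a homeodomain protein of the anterior proximal bud. One Alx4 member, 17.1 kb upstream of the start at its higher summit, had folds of 5.21 and 8.46 in FL and 2.88 and 8.08 in HL, with spacings of 323 and 281 bp. The other, 87.2 kb downstream, had 2 FL summits of fold 3.59 and an HL summit of fold 3.48. Emx2 is required for the scapula, and its higher member, 235 kb downstream of the start, was 935 bp wide. This member had 3 FL summits of folds 2.27, 6.67 and 8.61 and 5 HL summits of folds 4.55, 3.18, 5.61, 3.53 and 3.54. The first FL summit, the lowest in FL, lay 2 bp from an HL summit that was the second highest in HL. Alx1, Rarb and Tbx15 had members with 2 FL summits and 1 HL summit. In them the lone HL summit lay 9, 40 and 2 bp from the higher FL summit. The Rarb member lay 296 kb from the Rarb start and nearer to that of Top2b (158 kb). The Tbx15 member lay 456 kb from the Tbx15 start and nearer to that of Spag17 (175 kb).

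Of the T-box genes of limb identity, 2 of 4 had a member (Tbx4 and Tbx18). Tbx4, a gene used mainly in the HL bud, had a member of 1311 bp 119.8 kb downstream of its start at the highest summit. The FL folds there were 2.81, 12.1 and 7.07 and the HL folds 2.24, 2.22 and 4.50, so the region was higher in FL than in HL at this gene. The highest summits of the limbs were 9 bp apart. Of the signalling genes, 2 of 6 placed Fgf genes (Dusp6 and Fgfr1), 2 of 7 Wnt genes (Tcf7l2 and Wnt5a) and the 1 placed BMP gene (Bmp4) had an assigned member, against 30% of all placed genes. Dusp6, an Fgf-induced phosphatase, had FL summits of fold 2.29 and 7.50, 258 bp apart, and an HL summit of fold 4.29 that was 21 bp from the higher one. The Wnt5a member, 377.6 to 377.9 kb upstream, had FL folds of 2.54 and 6.24 and HL folds of 3.66 and 6.88, with spacings of 273 and 284 bp. The Bmp4 member lay 215 kb from the Bmp4 start and nearer to that of Cdkn3 (155 kb). It had 4 summits in each limb, with FL folds of 4.64, 2.51, 3.16 and 4.27 and HL folds of 2.53, 3.23, 2.45 and 4.16. Its highest summits were at opposite ends, 778 bp apart, but the last FL summit, of fold 4.27, lay 24 bp from the highest HL summit. Of the cartilage genes 2 of 4 had a member (Runx2 and Sox6), of the zinc finger genes both placed ones (Zbtb16 and Zfp503), and the 2 placed LIM homeobox and 2 placed muscle progenitor genes had no member among the rows read.

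Of 12 placed Hox genes, 11 had an assigned member, against 30% of all placed genes. The 11 genes are not independent counts, since neighbouring Hox genes shared some of these members. Those of the HoxC and HoxD clusters differed most between the limbs in summit number. The Hoxc4 member (chr15:102890797-102892269) was 1473 bp wide and had 5 FL summits, with folds of 2.55, 2.38, 4.27, 2.54 and 11.5. HL had a single summit of fold 6.14, 39 bp from the highest FL summit, and the 4 lower FL summits had no HL counterpart. The Hoxd12 member (chr2:74507825-74509469), 4.93 kb upstream of the start at its higher FL summit, was 1645 bp wide and lay between the Evx2 and Hoxd12 starts. In the GRCm38 annotation Hoxd13, for which no mm9 start was placed, lies between these genes. Hoxd12 is thus the nearest placed start and not necessarily the nearest gene. The paper reports a prominent Meis peak in Hoxd13, scoring far lower in HL than in FL. Whether this member is that peak was not checked here, and the name Hoxd12 stands only for the placed start. The member had 2 FL summits, with folds of 11.6 and 8.72, 511 bp apart. HL had 6 summits there in 1 region, with folds of 4.59, 5.45, 5.32, 2.14, 3.50 and 4.27. The first HL summit lay 22 bp from the higher FL summit, HL summit 3 lay 133 bp from the lower one, and the last 3 followed over the next 555 bp. The HL region was therefore split more finely although its folds were lower.

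**Figure D5:**
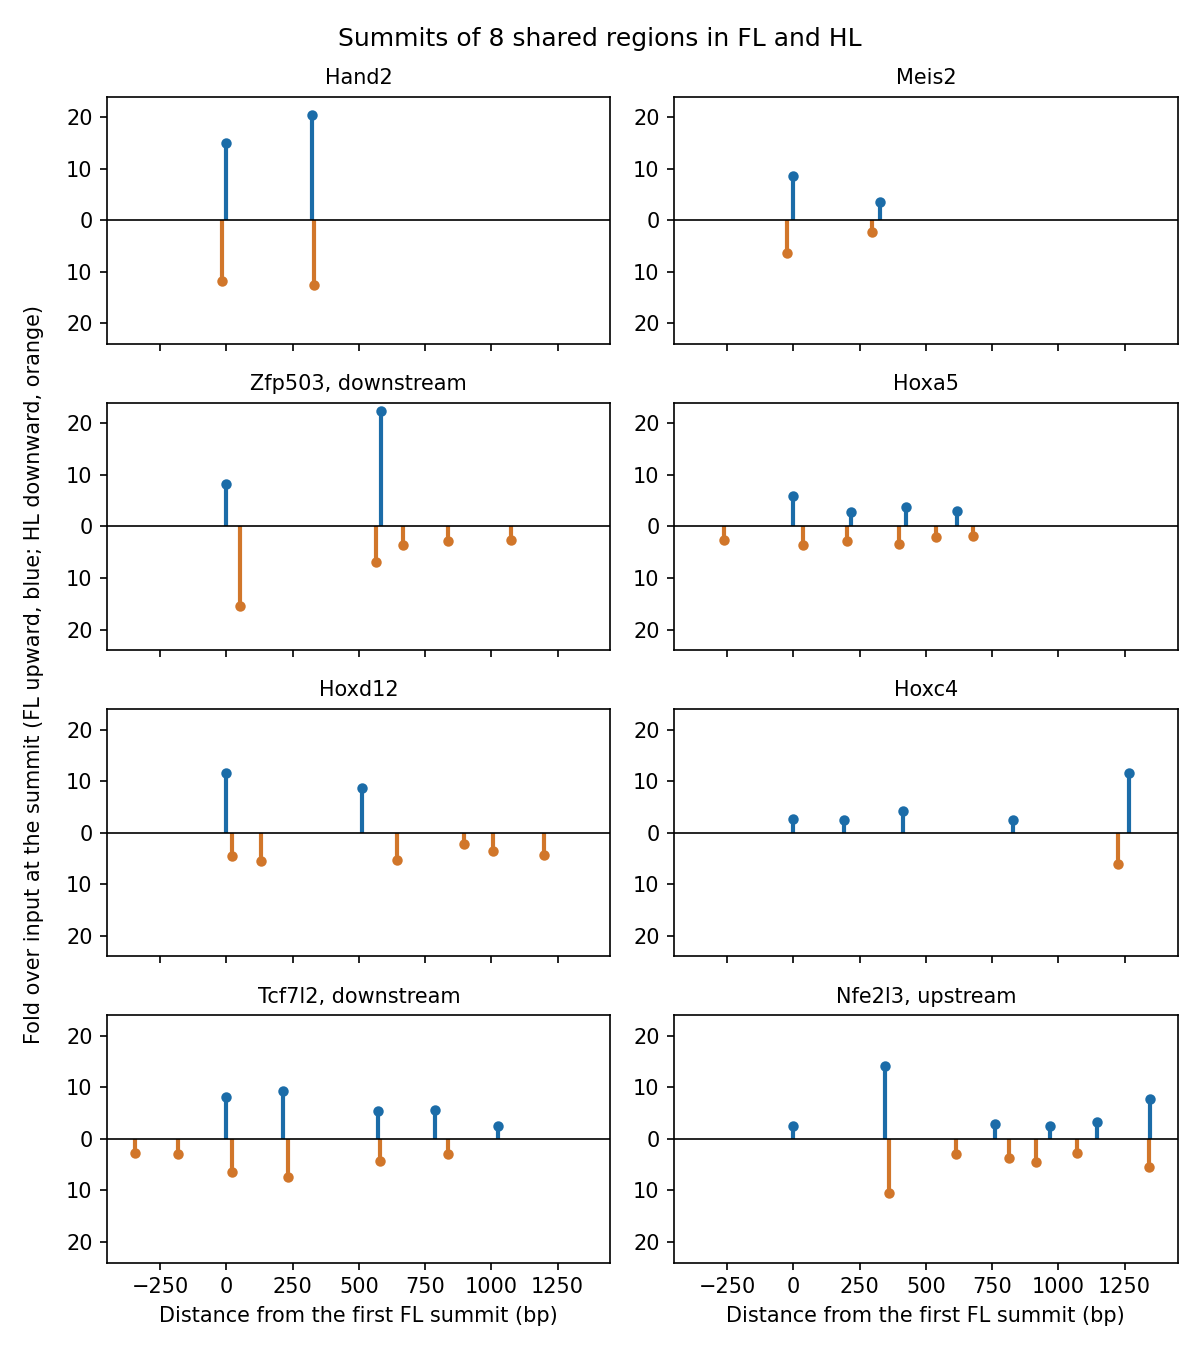
Fold over input at each summit (vertical axis, FL upward in blue and HL downward in orange) against the distance from the first FL summit (horizontal axis, bp) for 8 members, named by a gene beside them. At Hand2 and Meis2 the summits of the limbs face each other, and at Hoxc4 a single HL summit faces the highest of 5 FL summits. In the member between the Evx2 and Hoxd12 starts, named Hoxd12 here, 6 HL summits face 2 FL summits.

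The member with the most summits stood apart from all others. It spanned 7041 bp (chr4:129879285-129886325) between Tinagl1 and Gm853 and had 25 FL summits with folds of 3.06 to 10.48 (median 7.30), spaced 130 to 546 bp apart (median 271 bp). In HL it was covered by 11 separate regions of 100 to 443 bp, 2525 bp in all, with 13 summits of folds 2.08 to 3.38. Only 6 of the 25 FL summits had an HL summit within 50 bp. The region was thus broad and continuous in FL and low and broken in HL.

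The other members with 5 or 6 FL summits were narrower. The Nfe2l3 member (chr6:51146193-51147789), 236 kb upstream of this transcription factor gene, had 6 FL summits with folds of 2.54, 14.2, 2.81, 2.43, 3.30 and 7.76 and 6 HL summits with folds of 10.504, 2.84, 3.67, 4.44, 2.66 and 5.45. The 2 high FL summits lay 15 and 4 bp from the 2 highest HL summits, while the lower ones did not line up as closely. The Tns1 member had 6 FL summits, with folds rising from 2.03 at the second to 9.55 at the last, and 2 HL summits of folds 3.07 and 4.64. Tns1 encodes tensin, a protein of focal adhesions. The member assigned to Tcf7l2, a mediator of Wnt signalling, and Habp2 (chr19:56173953-56175437) lay 358 kb downstream of the Tcf7l2 start. Its 5 FL summits had folds of 8.09, 9.26, 5.38, 5.65 and 2.54. HL had 6 summits in 1 region, with folds of 2.74, 2.99, 6.397, 7.40, 4.25 and 2.93, of which the last 4 lay 20, 19, 6 and 47 bp from the first 4 FL summits. The same row of 4 summits was therefore present in both limbs. The Matn1 member, upstream of this cartilage matrix gene, had 5 summits in each limb, with FL folds of 3.24, 11.9, 11.01, 12.4 and 6.59 and HL folds of 3.38, 6.93, 5.62, 2.16 and 2.01. The Tshz1 member, on chromosome 18, had 5 FL summits (folds 3.22, 16.2, 5.05, 3.96 and 2.54) and 3 HL summits (folds 11.3, 2.88 and 2.51), with the highest ones 9 bp apart. The member between Wnt11 and Fam168a (chr7:106104802-106106254) had 3 FL summits of folds 5.43, 6.89 and 9.29 and 6 HL summits of folds 2.49, 6.88, 3.25, 6.85, 4.42 and 3.18.

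The highest folds in FL belonged to members with 1 dominant summit, apart from Hand2 and the member 85.1 kb from Zfp503. The member 9.12 kb from the Ubl4b start had FL folds of 23.4 and 3.64 and an HL summit of fold 14.8. That beside 1700111E14Rik had FL folds of 23.4 and 3.23 and an HL fold of 15.98, and that beside Pou5f2 FL folds of 19.7 and 2.51 and an HL fold of 16.8. In these 3 members the HL summit lay 14, 9 and 2 bp from the higher FL summit, and the lower FL summit, 274 to 501 bp away, had no HL counterpart. At the other extreme, the members with the smallest spacings were low. The pairs of FL summits 31, 33 and 43 bp apart had folds of 1.94 and 2.101, 2.66 and 2.32, and 2.51 and 1.86, all with q = 1.

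The highest summits of the limbs lay far apart in a few members with q at most 0.05 in both. Among members split in both limbs with q at most 0.05 in each, large distances were found in the member assigned to Bmp4 (778 bp) and between Wnt11 and Fam168a (616 bp). They were also found in the members 219 kb from the Dennd1a start (583 bp) and 562 kb from the Dtwd2 start (562 bp). In the Dennd1a member the FL folds were 2.1995, 3.53 and 4.82 and the HL folds 5.16, 4.44 and 5.03, so that the first and last HL summits were of nearly equal height.

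Finally, the members were set beside the regions that the study listed as common to Tbx5 and Hoxc10, a T-box and a Hox protein of the limb bud. Such a region overlapped 147 members (18.8%), 288 of the shared regions with 1 summit (7.14%) and 15 of the regions with several summits and no HL region (2.82%). Within classes of width the order of the first 2 was not kept. The shares were 5.33% of members and 3.72% of regions with 1 summit below 300 bp, 9.20% and 12.3% from 300 to 400 bp, 13.1% and 18.4% from 400 to 500 bp, 25.7% and 31.4% from 500 to 700 bp, and 31.9% and 41.7% at 700 bp or more. Of the 148 Tbx5-Hoxc10 regions over members, 112 (75.7%) had their middle nearest to the highest FL summit of the member, and 104 (70.3%) had an FL summit within 50 bp of the middle, with a median distance of 34 bp.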

How the data were processed

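Only the FL and HL Meis peak lists were analysed. Per the methods and labels, the authors aligned 50 bp single-end reads to mm9 with BWA and called peaks with MACS2 over each limb's own input at a loose p cutoff, splitting regions into summits. The deposited fold is the ratio of ChIP signal to local background. The deposited −log10 p and −log10 q are the authors' values for each summit. The deposited score was 10 times the −log10 p with decimals dropped in all 22906 FL and in 17796 of 17810 HL summits, and served only to check the files. The authors' notes also name cutadapt 1.3 and CASAVA 1.8.2.

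Rows with equal chromosome, start and end were collapsed to 1 region, with the highest fold and lowest q of its summits. A summit is the region start plus its offset, printed counted from 1. Median spacings were taken within a region, matches within 50 bp, and HL summits over all overlapping HL regions. Gene starts in mm9 came from the study's peak-to-gene distances, kept where all rows gave 1 start within 2 bp (2023 of 2091 genes); no coordinate was converted. RefSeq promoters (GRCm38.p6) were matched by symbol. The depth of single summits is unknown, and intervals (95%) cover counting error only.

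Named members were the 5 with the most FL summits, the highest FL folds, the most HL summits and the largest distance between highest summits, the 3 with the smallest spacing, and those assigned to listed limb genes. Members at the promoters and in the runs were named after their values were seen. The members, lists and rule were chosen with earlier results of these data known. Overlap, summit number, summit matching and spacing were tested on simulated data, and the placing of starts was not. The tools were Python 3.11.15, pandas 2.3.3, numpy 2.4.6, matplotlib 3.10.9 and scipy 1.17.1. Alternatives changed the overlap, the p or q cutoff, the HL region counted, the summits required, the matching distance and the distance to a start. Some members that the rule names are not reported here.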

Additional observations from a re-analysis of the deposited data

How the results depend on the processing

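No value has a replicate error, and no paired analysis was possible because each limb has 1 ChIP library. Of 55 recomputed values, 31 stayed within their counting interval, or for counts within 1.5 times, and 24 moved. With q at most 0.05 in both lists, 306 members were left, 43.5% had 2 or more HL summits, the median spacing was 237 bp in FL and 197 bp in HL, the median width 596.5 bp, the summits matched 50.7%, the highest summits within 50 bp 60.9% and the fold ratio 0.505. With p at most 0.0005 in both, FL spacing was 217 bp, width 536 bp and the fold ratio 0.598. Counting only the overlapping HL region of the highest fold, 27.6% had 2 or more HL summits and 41.1% of FL summits matched. Requiring 3 or more FL summits gave 64.7% with 2 or more HL summits, an FL spacing of 219 bp, a width of 779 bp, 41.6% matched and a fold ratio of 0.523. Matching within 25 bp gave 28.1% of FL summits and 36.7% of highest summits, and within 100 bp 61.3% and 62.7%. With the limbs exchanged, 43.1% of the HL regions had 2 or more FL summits. A start within 1 kb was found for 3.12%. An overlap of 50% of the shorter region moved none of 8 values. Leaving out the region of 25 summits and the 8 members around Sfi1, chosen after the data were seen, also moved none of 8. FL spacing exceeded HL spacing in every alternative that gave both. All of these chose the members on FL summits and took HL spacings only within single HL regions. They therefore cannot tell whether the direction depends on that choice, and no spacing was computed with the limbs exchanged. The cause of the moved values was not tested.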

Other observations

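The rule was also applied from the HL side. Of 705 HL regions with 2 or more summits, 590 overlapped an FL region (83.7%, 80.8 to 86.2%). Of the FL regions with several summits, 59.5% overlapped HL. Of all 16987 HL regions, 4332 were shared with a single HL summit. The FL list was longer, with 21338 regions, so an HL region can meet an FL region more easily. The 83.7% and 59.5% are therefore not directly comparable. These 590 HL regions had a median width of 382.5 bp (range 134 to 1553 bp) and a median highest HL fold of 4.06. The FL regions over them had 2 or more summits in 254 cases (43.1%, 39.1 to 47.1%), against 16.2% (700 of 4332) for shared HL regions with a single summit.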
